A study of Caenorhabditis elegans with 12 samples.

Results

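The insulin-like peptides of the nematode Caenorhabditis elegans are the secreted ligands of the DAF-2 receptor. They were taken as all genes of the deposited count table whose symbol in the WBcel235 annotation is ins- followed by a number, together with daf-28. This rule found 39 genes, 38 ins genes and daf-28, among 46904 gene IDs, and 35 of the 39 passed the filter on low counts. Polyadenylated RNA was sequenced in 12 libraries in a series on transcript levels and polysome profiles of worms with or without glh-1, a Vasa-family helicase gene of the germ granules. Each genotype, labelled wt or glh1, was grown as 3 replicate liquid cultures at 20 °C on OP50 bacteria. Larvae synchronised by bleaching and hatching were harvested after about 40 h, when most were young adults. Each lysate, made in the presence of cycloheximide, gave 1 library of total RNA and 1 of polysomal RNA, the RNA that ran with polysomes in a 10 to 50% sucrose gradient. This gave 4 groups of 3 libraries. The sources used here name neither the allele behind the label glh1 nor the strain backgrounds. Worms were extracted whole, so that a transcript of a few cells was measured against all other tissues.

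Insulin-like peptides are made mainly by neurons and the intestine as precursors that are cleaved and released from vesicles. Agonists bind the receptor DAF-2 and, through the kinases AGE-1 and AKT-1, keep the transcription factor DAF-16 out of the nucleus, while antagonists lower DAF-2 signalling. The pathway is known for its control of dauer arrest, germline proliferation, metabolism, stress resistance and lifespan.

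The genes were small and clustered. They were spread over all 6 chromosomes, and 25 of the 39 lay in 7 groups in which neighbours were at most 50 kb apart. The largest group, on chromosome I from 14012369 to 14037777 in WBcel235, held ins-28, ins-29, ins-25, ins-27, ins-24, ins-30 and ins-26 within 25409 bp. A second, on chromosome II from 5988524 to 6011321, held ins-2, ins-3, ins-4, ins-5, ins-6 and ins-20 within 22798 bp. The gene daf-28 lay alone on chromosome V, 19815133 to 19816454, and ins-17 on chromosome III, 4476918 to 4477572. Annotated exon length ran from 284 bp (ins-16) to 955 bp (ins-37), and the longest annotated protein ran from 67 residues (ins-28) to 218 residues (ins-31). None of the 39 genes had the same counts as another gene in every library. The spans of 5 members overlapped another annotated gene. These were ins-10 with vps-39, ins-34 with nkcc-1 and ins-36 with Y53H1A.7 and anr-40 on the opposite strand, ins-13 with acdh-2 on the same strand, and ins-37 with small noncoding RNAs. Strand use in counting was not stated, so reads of ins-10, ins-34 and ins-36 may include reads of these neighbours.

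Libraries held 34520267 to 49672537 estimated counts, of which 3340 to 16446 belonged to the 39 genes, and annotated ribosomal RNA took 3.07 to 45.7%. This share was 28.8 to 40.4% in wt and 13.5 to 27.9% in glh1 total RNA, so the genotypes lay apart. In polysomal RNA it was 4.89 to 9.51% in wt and 3.07, 45.7 and 16.4% in glh1 libraries 1 to 3. The share thus differed between the groups compared, with polysomal glh1 library 2 far above the other polysomal libraries. A fit with these genes removed is among the alternatives below. The transcript of glh-1 itself was not lower under its label. It measured 293 to 424 CPM, counts relative to the TMM-scaled library size, in wt and 532 to 1495 CPM in the libraries labelled glh1. The gene counts do not show which part of glh-1 was read, so the label glh1 is not checked by these values and each direction below is that of libraries labelled glh1. The libraries carry the tissue label whole embryo, although the protocol is of young adults. A list of 8 embryo genes summed to 88.0 to 138 CPM in total RNA, and 12 germline genes to 1911 to 3370 CPM. These sums are a description, and stage was not tested with them. Polysomal library 3 of glh1 stood apart for many of the members. In this library, 33 of the 35 members tested were at their highest among the 3 libraries of the group, against 43.4% of all genes tested. The median member stood at 2.22 times the mean of libraries 1 and 2. Total RNA of wt culture 1 was the highest of its group for 18 and the lowest for 10 members. Over all genes these shares were 36.6% and 45.8%. Polysomal RNA of that culture was the highest for 19 and the lowest for 12, against 44.3% and 36.9% of all genes.

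Every level below is in CPM, and comparisons between genes use CPM per kb of exon. Over all 12 libraries the 5 most abundant members per kb were ins-17, ins-27, ins-28, ins-24 and ins-23, with means of 99.9, 75.8, 37.5, 27.2 and 26.9 CPM per kb. In wt total RNA, ins-17 measured 43.4 ± 6.12 CPM per kb (SD, n = 3) and ins-27 measured 43.3 ± 8.93, with overlapping ranges. The next in order, ins-24 at 16.3 ± 1.117 CPM per kb, lay apart from ins-27. It was followed by ins-30 at 12.1 ± 1.34 and ins-28 at 11.3 ± 1.55. Of the 38 steps between neighbours in this order, 35 joined genes whose ranges overlapped in wt total RNA. The same held for 31 steps in glh1 total RNA, 32 in wt polysomal RNA and 37 in glh1 polysomal RNA. Among ligands named as agonists by genetics, ins-35 and daf-28 had the highest means in wt total RNA, at 6.64 ± 0.767 and 5.56 ± 1.66 CPM per kb, with overlapping ranges. The family as a whole was scarce: its 39 genes summed to 109, 114 and 99.9 CPM in wt total RNA.

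**Figure D1:**
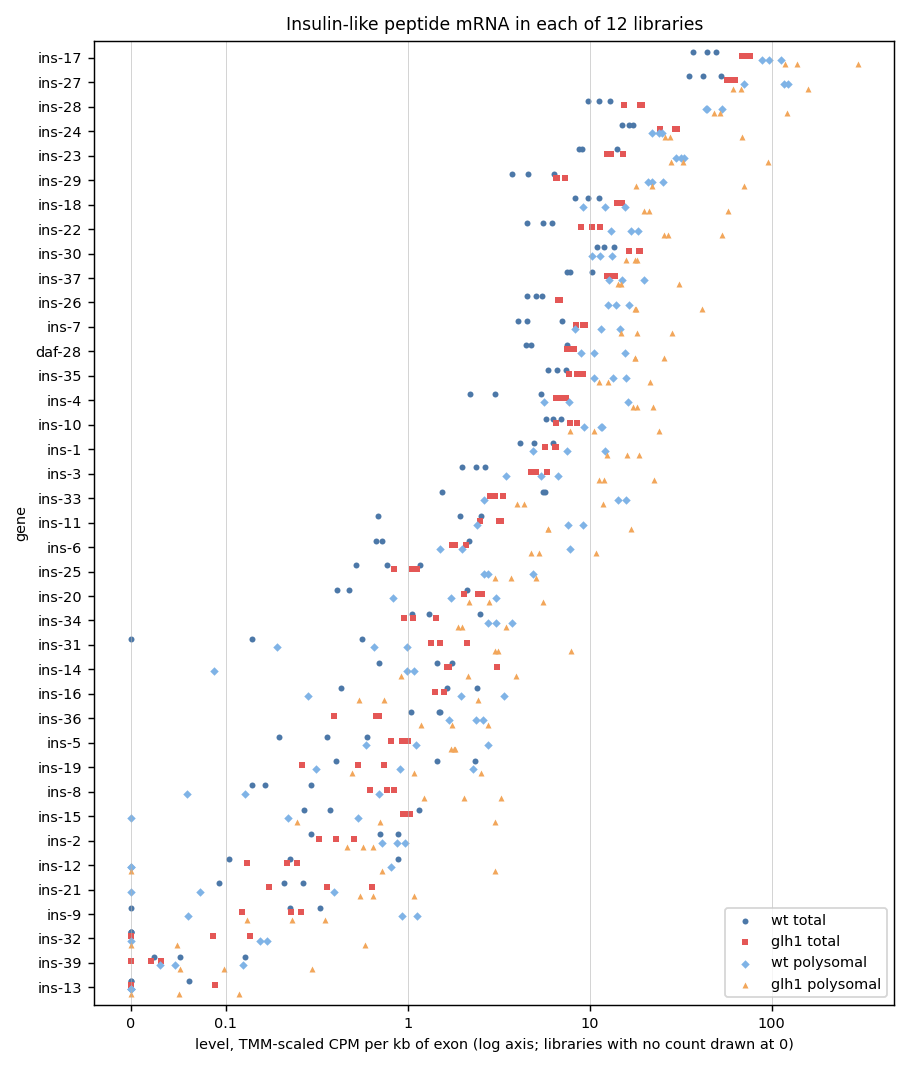
Level of each of the 39 insulin-like peptide genes in each of 12 libraries, in TMM-scaled CPM per kb of exon on a log axis, with genes ordered by their mean and libraries with no count drawn at 0. The genes ins-17 and ins-27 lead in every group, and ins-13, ins-32 and ins-39 lie at the low end.

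The 4 members that did not pass the filter were ins-9, ins-13, ins-32 and ins-39. The highest count of ins-9 in any library was 22, in a gene on chromosome X, 8866099 to 8866663. Its counts in wt were 0, 5 and 6 in total RNA and 2, 19 and 22 in polysomal RNA, so culture 1 was the low one in both fractions. The highest count was 1 for ins-13, 5 for ins-32 and 5 for ins-39. A count of 3 was worth 0.0484 to 0.109 CPM in these libraries, so lower levels of these genes were not measurable at this depth.

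The first comparison was of the genotypes in total RNA, where no insulin-like peptide passed the test. With edgeR's quasi-likelihood test and Benjamini-Hochberg adjustment over 16526 genes, 0 of 35 members were called higher or lower in libraries labelled glh1, where 0.944% of all genes tested were called. An unadjusted p under 0.05 was reached by 11 of the 35 and by 17.8% of all genes. The log2 fold change was above 0 for 29 members and below 0 for 6, with a median of 0.58 over the members and -0.07 over all genes tested. The 3 glh1 libraries lay above all 3 wt libraries for 18 members, a pattern that 16.6% of all genes tested had, and below them for 1, ins-36, against 17.1% of all genes. Because worms were extracted whole, fewer cells of a type and less RNA per cell cannot be told apart in the comparisons between genotypes.

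Among the agonists, 7 of 9 were tested and 6 of the 7 had a positive log2 fold change, with a median of 0.66. The gene ins-3, on chromosome II, 5990099 to 5990768, encodes an agonist of DAF-2. Its mRNA measured 1.57, 1.40 and 1.17 CPM in wt and 2.81, 3.00 and 3.42 CPM in glh1 in cultures 1 to 3. The groups did not overlap, and the log2 change was 1.16 ± 0.33 (SE, adjusted p = 0.107). The agonist gene daf-28, whose product from sensory neurons promotes reproductive growth over dauer arrest, stood at 5.72, 3.64 and 3.42 CPM in wt and 6.31, 5.92 and 5.75 CPM in glh1. The lowest glh1 library was only just above wt culture 1, the highest of the wt libraries, and the log2 change was 0.49 ± 0.27 (SE, adjusted p = 0.366). The agonists ins-4 and ins-6 also act in the dauer decision. The level of ins-4 was 3.16, 1.77 and 1.28 CPM in wt and 3.81, 4.07 and 4.36 CPM in glh1, without overlap between groups (0.98 ± 0.39 SE, adjusted p = 0.226). For ins-6 it was 1.13, 0.374 and 0.3495 CPM in wt and 1.09, 0.911 and 0.943 CPM in glh1, where wt culture 1 lay above every glh1 library (0.66 ± 0.64 SE, adjusted p = 0.623). The agonist ins-7, which is made in the intestine and neurons and is known as a gene lowered by DAF-16, measured 1.91, 1.70 and 2.99 CPM in wt and 3.88, 3.97 and 3.54 CPM in glh1. All glh1 libraries were above all wt libraries (0.78 ± 0.31 SE, adjusted p = 0.227). The remaining agonists tested were ins-35, at 0.35 ± 0.28 (SE, adjusted p = 0.538), and ins-33, at -0.47 ± 0.64 (SE, adjusted p = 0.744).

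All 4 antagonists tested had a positive log2 fold change, with a median of 0.59. The most abundant ligand, ins-17, an antagonist by genetics, measured 27.4, 24.5 and 20.6 CPM in wt and 42.2, 39.8 and 38.1 CPM in glh1. The groups lay apart, with a log2 change of 0.73 ± 0.29 (SE, adjusted p = 0.222). The antagonist ins-37 measured 7.49, 9.87 and 7.18 CPM in wt and 11.9, 12.4 and 13.1 CPM in glh1, again without overlap (0.61 ± 0.29 SE, adjusted p = 0.295). For ins-18, an antagonist like ins-1, values were 4.84, 3.57 and 4.25 CPM in wt and 6.20, 6.54 and 6.13 CPM in glh1, also apart (0.57 ± 0.37 SE, adjusted p = 0.438). The gene ins-1, whose product acts in salt chemotaxis learning, stood at 5.04, 3.34 and 3.98 CPM in wt and 5.24, 5.15 and 4.55 CPM in glh1. Here wt culture 1 lay within the glh1 range (0.27 ± 0.31 SE, adjusted p = 0.686).

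The remaining members have no role here as agonist or antagonist. The largest log2 fold changes among them were those of ins-31, at 2.75 ± 0.77 (SE, adjusted p = 0.109), and ins-8, at 1.86 ± 0.73 (SE, adjusted p = 0.216), both scarce transcripts. Counts of ins-31 were 16, 0 and 5 in wt and 49, 35 and 63 in glh1, and those of ins-8 were 5, 2 and 3 and 15, 13 and 11. Neither gene's groups overlapped. On chromosome I, ins-24 and ins-30 are neighbours. The level of ins-24 was 7.24, 8.31 and 7.82 CPM in wt and 14.1, 14.4 and 11.6 CPM in glh1 (0.78 ± 0.32 SE, adjusted p = 0.230), and that of ins-30 was 7.36, 9.16 and 8.08 CPM in wt and 12.7, 12.8 and 11.2 CPM in glh1 (0.58 ± 0.18 SE, adjusted p = 0.148). Both had glh1 libraries above every wt library. Of the 7 genes in that cluster, 6 showed groups apart in this direction, ins-25 being the other. The same pattern was seen in 18 of the 35 members and 16.6% of all genes tested, so it is not read as a trait of the cluster. The gene ins-22, whose tagged product is widely used to follow dense-core vesicles, measured 2.10, 1.53 and 1.88 CPM in wt and 3.47, 3.86 and 3.04 CPM in glh1 (0.90 ± 0.30 SE, adjusted p = 0.162). In the opposite direction, ins-36 measured 0.807, 0.817 and 0.563 CPM in wt and 0.362, 0.214 and 0.377 CPM in glh1 (-1.17 ± 0.40 SE, adjusted p = 0.169), with all 3 glh1 libraries below wt.

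The other members of the chromosome I cluster, ins-28, ins-29, ins-27, ins-26 and ins-25, had log2 fold changes of 0.67, 0.48, 0.48, 0.44 and 0.33 in total RNA. In the chromosome II cluster ins-5 and ins-20 had 1.22 and 1.21, and ins-2 had -0.64. Smaller or less certain values belonged to ins-21 (0.95 ± 0.83 SE, adjusted p = 0.586), ins-11 (0.80 ± 0.59 SE, adjusted p = 0.505), ins-15 (0.71 ± 0.88 SE, adjusted p = 0.714), ins-14 (0.70 ± 0.64 SE, adjusted p = 0.603), ins-23 (0.36 ± 0.39 SE, adjusted p = 0.672), ins-10 (0.26 ± 0.35 SE, adjusted p = 0.741) and ins-16 (0.06 ± 0.78 SE, adjusted p = 0.979). Besides ins-36, ins-2 and ins-33, the members with negative values were ins-34 (-0.46 ± 0.39 SE, adjusted p = 0.566), ins-12 (-1.15 ± 1.44 SE, adjusted p = 0.719) and ins-19 (-1.43 ± 0.82 SE, adjusted p = 0.382). The last 2 were scarce, with no more than 27 and 31 counts in any library.

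**Figure D2:**
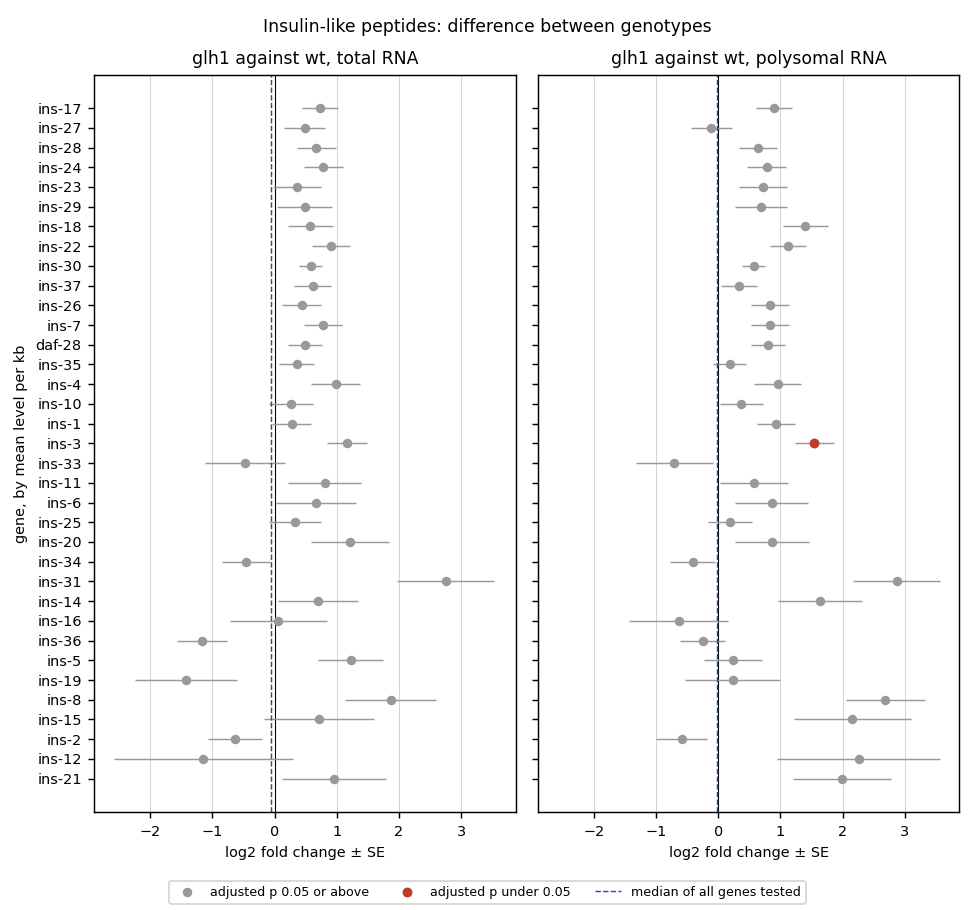
Log2 fold change of libraries labelled glh1 against wt, with its standard error, for the 35 members tested, in total RNA (left) and polysomal RNA (right), with genes ordered by mean level per kb and the median of all genes tested as a dashed line. Red points passed an adjusted p under 0.05, which only ins-3 in polysomal RNA did.

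The count of 0 in total RNA depended on which libraries entered the fit. With only the 6 total RNA libraries, 9 members were called higher (ins-3, ins-8, ins-17, ins-22, ins-24, ins-28, ins-30, ins-31 and ins-37) where 4.47% of all genes were, and leaving polysomal glh1 library 3 out of the shared fit gave 7, all among these 9, where 3.55% of all genes were. Without both libraries of wt culture 1 a different set of 7 passed (daf-28, ins-3, ins-4, ins-5, ins-8, ins-20 and ins-31), against 5.45% of all genes, and DESeq2 called ins-3, ins-30 and ins-31, against 2.63%.

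The second comparison was of the genotypes in polysomal RNA, where 1 of 35 members, ins-3, was called higher in libraries labelled glh1 and none lower. Over all genes tested, 0.545% were called higher. An unadjusted p under 0.05 was reached by 16 members and by 15.7% of all genes. Again 29 members had a positive and 6 a negative log2 fold change, with a median of 0.78 against -0.01 over all genes. The glh1 libraries lay above all wt libraries for 14 members, as for 9.48% of all genes, and below for 1, ins-2, as for 8.08%.

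Polysomal ins-3 measured 3.94, 2.03 and 3.19 CPM in wt and 6.63, 7.06 and 13.2 CPM in glh1. Every library labelled glh1 was above every wt library, and library 3 was the highest of the glh1 libraries. The log2 change was 1.55 ± 0.32 (SE, adjusted p = 0.0355), from a mean of 3.05 ± 0.961 to 8.98 ± 3.70 CPM (SD, n = 3). Without that library the log2 fold change was 1.16 and the call remained (adjusted p = 0.0388), whereas it was lost with only the polysomal libraries in the fit (adjusted p = 0.388), without wt polysomal library 2 or 3 (adjusted p = 0.198 and 0.151) and under other settings. Over 23 alternatives its adjusted p ran from 4.37e-04 to 0.388, and 12 of them called it.

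The next smallest adjusted p-values belonged to ins-8 and ins-31. Polysomal ins-8 measured 0.290, 0.0254 and 0.0532 CPM in wt and 0.849, 0.509 and 1.35 CPM in glh1 (2.69 ± 0.64 SE, adjusted p = 0.0715), and polysomal ins-31 0.694, 0.457 and 0.133 CPM in wt and 2.11, 2.18 and 5.51 CPM in glh1 (2.87 ± 0.70 SE, adjusted p = 0.0806). Neither gene's groups overlapped, though wt counts were only 18, 1 and 2 for ins-8 and 43, 18 and 5 for ins-31. Among the other agonists, daf-28 stood at 11.9, 6.83 and 8.13 CPM in wt and 13.6, 13.7 and 19.7 CPM in glh1 (0.80 ± 0.27 SE, adjusted p = 0.182) and ins-4 at 9.52, 4.52 and 3.30 CPM in wt and 10.6, 10.1 and 13.1 CPM in glh1 (0.96 ± 0.38 SE, adjusted p = 0.246). In both genes wt culture 1 was the highest of the wt libraries and lay below all glh1 libraries. Agonist ins-7 measured 3.49, 4.87 and 6.17 CPM in wt and 7.64, 6.25 and 11.9 CPM in glh1 (0.83 ± 0.31 SE, adjusted p = 0.214), also without overlap.

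All 4 antagonists tested had positive log2 fold changes in polysomal RNA, with a median of 0.91. Of these, ins-18 measured 6.78, 3.99 and 5.26 CPM in wt and 9.19, 8.59 and 24.8 CPM in glh1 (1.40 ± 0.37 SE, adjusted p = 0.103), ins-1 measured 9.79, 3.91 and 6.03 CPM in wt and 12.8, 10.0 and 15.1 CPM in glh1 (0.94 ± 0.30 SE, adjusted p = 0.162) and ins-17 measured 63.2, 54.2 and 49.2 CPM in wt and 76.7, 65.7 and 167 CPM in glh1 (0.89 ± 0.29 SE, adjusted p = 0.161). In each of these 3 genes the groups lay apart. The fourth, ins-37, measured 18.9, 12.26 and 14.4 CPM in wt and 13.7, 14.2 and 29.6 CPM in glh1, and its groups overlapped (0.33 ± 0.29 SE, adjusted p = 0.622). The gene ins-30 differed from most members in that glh1 library 3 was not high. It measured 6.99, 8.91 and 7.71 CPM in wt and 12.0, 12.4 and 10.7 CPM in glh1, with groups apart and a log2 change of 0.57 ± 0.18 (SE, adjusted p = 0.160), close to the 0.58 of total RNA.

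Among members with no named role, ins-22 measured 6.20, 4.44 and 5.74 CPM in wt and 8.72, 9.07 and 18.1 CPM in glh1 (1.13 ± 0.29 SE, adjusted p = 0.101), and its groups lay apart. The groups of ins-24 and ins-26 lay apart too, with 0.78 ± 0.32 (SE, adjusted p = 0.253) and 0.84 ± 0.30 (SE, adjusted p = 0.205). Those of ins-21 did so on few counts, 9, 0 and 1 in wt and 12, 8 and 11 in glh1 (1.99 ± 0.78 SE, adjusted p = 0.242). For ins-12, ins-14 and ins-15, log2 fold changes of 2.26, 1.64 and 2.16 came with overlapping groups and standard errors of 0.67 to 1.31. The remaining log2 fold changes were 0.86 for ins-6, 0.87 for ins-20, 0.72 for ins-23, 0.69 for ins-29, 0.64 for ins-28 and 0.58 for ins-11. They were 0.18 to 0.37 for ins-5, ins-10, ins-19, ins-25 and ins-35, and below 0 for ins-2 (-0.59 ± 0.41 SE, adjusted p = 0.527), ins-16, ins-27, ins-33, ins-34 and ins-36.

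**Figure D3:**
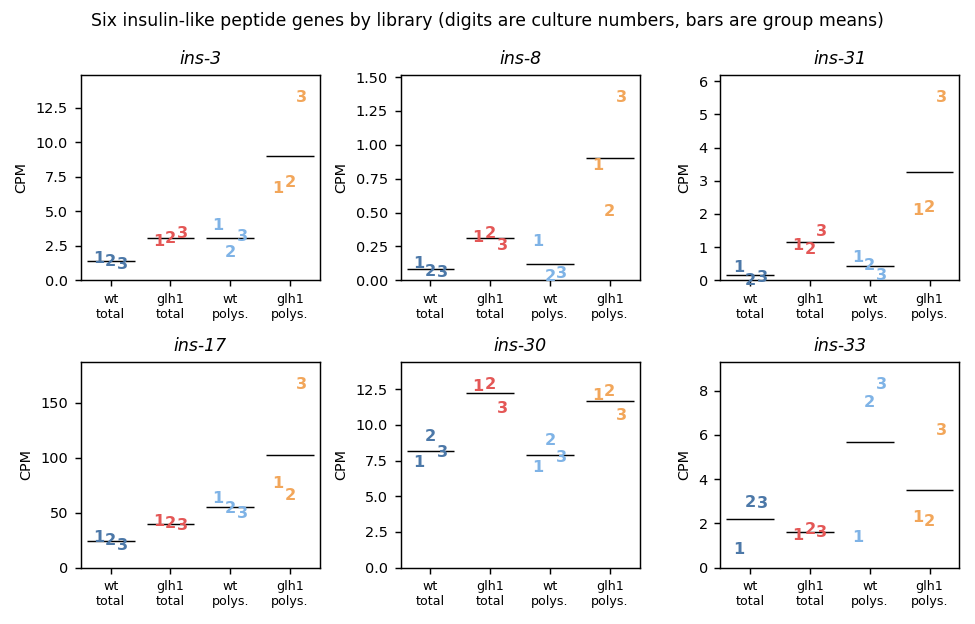
Level in CPM of 6 members in each library, with digits for culture numbers and bars for group means. Library 3 of polysomal glh1 is the highest of all for ins-3, ins-8, ins-31 and ins-17 but not for ins-30 or ins-33, and wt culture 1 is low for ins-33.

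The size of the polysomal difference rested in part on glh1 library 3, whose 39 genes summed to 587 CPM against 279 and 256 CPM in libraries 1 and 2 and 225 to 244 CPM in wt. Without it the median log2 fold change was 0.27, with 21 of 36 members positive, and without both libraries of wt culture 1 the calls were 8 higher (daf-28, ins-1, ins-3, ins-4, ins-6, ins-8, ins-21 and ins-31), against 4.11% of all genes, and 1 lower (ins-9), against 4.66%. DESeq2 called 6 higher (ins-3, ins-8, ins-18, ins-22, ins-30 and ins-31), against 2.78% of all genes, and edgeR with an exon-length trend removed called 4 (ins-3, ins-8, ins-18 and ins-22), against 0.883%.

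The third comparison was of polysomal with total RNA of the same lysates, and here many members were higher in polysomal RNA. In wt, 18 of 35 members were called higher and 0 lower, where 20.1% of all genes tested were called higher and 19.8% lower. In glh1, 18 were again called higher and 0 lower, against 23.6% and 19.1% of all genes. The median log2 ratio of the members was 1.01 in wt and 1.34 in glh1, against 0.06 and 0.13 over all genes. With upper-quartile scaling, 21 and 20 members were called higher and 0 lower, while 29.2% of all genes were called higher and 14.4% lower in wt, and 29.1% and 15.9% in glh1. Of the called members, 15 were shared (daf-28, ins-3, ins-4, ins-6, ins-7, ins-11, ins-17, ins-22, ins-23, ins-25, ins-26, ins-28, ins-29, ins-34 and ins-35). The share of all genes called in both genotypes is not given here, so this overlap is not read as a trait of the members. The other called members were ins-5, ins-27 and ins-37 in wt and ins-1, ins-18 and ins-36 in glh1. The polysomal libraries lay above all total RNA libraries for 18 members in wt and 23 in glh1, as for 25% and 34.3% of all genes. Within cultures, the ratio was above 0 in all 6 cultures for 22 members, against 31.7% of all genes tested, and below 0 in all 6 for 1, ins-30, against 26.9%.

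Of the 7 agonists tested, 6 were called higher in each genotype, against 20.1% of all genes in wt and 23.6% in glh1. With the exon-length trend removed, no agonist was called in wt, and only daf-28 and ins-3 were in glh1. The call of ins-6 in wt held in 8 of 22 alternatives. The log2 ratio of daf-28 was 1.07 ± 0.27 (SE, adjusted p = 0.00824) in wt and 1.38 ± 0.27 (SE, adjusted p = 0.00192) in glh1, and the culture values were 1.05, 0.90 and 1.239 and 1.10, 1.20 and 1.77. For ins-4 the ratios were 1.49 ± 0.39 (SE, adjusted p = 0.0101) and 1.46 ± 0.39 (SE, adjusted p = 0.00923), and for ins-6 1.67 ± 0.63 (SE, adjusted p = 0.0497) and 1.87 ± 0.61 (SE, adjusted p = 0.0267). The agonists ins-3, ins-7 and ins-35 had ratios of 1.16, 1.13 and 1.00 in wt and 1.54, 1.18 and 0.83 in glh1. The remaining agonist, ins-33, was not called without a culture term (1.36 ± 0.63 SE, adjusted p = 0.106, in wt and 1.12 ± 0.64 SE, adjusted p = 0.172, in glh1), and was called in both genotypes with culture as a block (adjusted p = 0.0176 and 0.0470).

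Of the antagonists, ins-17 was called in both genotypes. Its level went from 27.4, 24.5 and 20.6 CPM in total RNA to 63.2, 54.2 and 49.2 CPM in polysomal RNA of the same wt cultures, a log2 ratio of 1.20 ± 0.29 (SE, adjusted p = 0.00632). In glh1 it went from 42.2, 39.8 and 38.1 to 76.7, 65.7 and 167 CPM (1.36 ± 0.29 SE, adjusted p = 0.00296). The fractions lay apart in both genotypes. The ratio of ins-37 passed in wt (0.90 ± 0.29 SE, adjusted p = 0.0279) but not in glh1 (0.62 ± 0.29 SE, adjusted p = 0.102), and those of ins-1 and ins-18 passed in glh1 (1.34 and 1.17) but not in wt (0.68 and 0.34).

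Among called members, the largest ratios in each genotype belonged to 3 neighbours of the chromosome I cluster. The scarce ins-12, which was not called, had a larger value in glh1 (2.55 ± 1.35 SE, adjusted p = 0.142), with culture ratios of 1.66, -1.43 and 3.13. Total RNA of wt held ins-29 at 2.13, 1.53 and 1.243 CPM and polysomal RNA at 7.003, 8.45 and 7.36 CPM, a log2 ratio of 2.22 ± 0.45 (SE, adjusted p = 0.00219). In glh1 the ratio was 2.42 ± 0.44 (SE, adjusted p = 0.00124). For ins-28 the levels in wt were 4.04, 4.63 and 3.51 and 19.2, 15.8 and 15.9 CPM, with ratios of 2.07 ± 0.32 (SE, adjusted p = 4.40e-04) in wt and 2.04 ± 0.32 (SE, adjusted p = 5.10e-04) in glh1. The scarcer ins-25 had ratios of 2.08 ± 0.40 (SE, adjusted p = 0.00155) and 1.95 ± 0.39 (SE, adjusted p = 0.00192). These 3 genes' polysomal libraries were all above their total RNA libraries. Elsewhere in this cluster, ins-26 had ratios of 1.51 and 1.92, ins-27 of 1.26 and 0.67, and ins-24 of 0.54 in each genotype, which did not pass. The gene ins-30, at 7.36, 9.16 and 8.08 CPM in total and 6.99, 8.91 and 7.71 CPM in polysomal RNA of wt, had ratios of -0.06 ± 0.18 (SE, adjusted p = 0.819) and -0.06 ± 0.18 (SE, adjusted p = 0.799). Its fractions overlapped in both genotypes, and with upper-quartile scaling the ratios were 0.20 and 0.09.

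On chromosome III, ins-22 had ratios of 1.56 ± 0.30 (SE, adjusted p = 0.00167) and 1.79 ± 0.30 (SE, adjusted p = 7.25e-04) and ins-23 of 1.57 ± 0.40 (SE, adjusted p = 0.00771) and 1.93 ± 0.40 (SE, adjusted p = 0.00238). Their neighbour ins-21 had counts of only 4, 1 and 4 in wt total RNA, and its ratio did not pass in either genotype. The intestinal ligand ins-11, known from pathogen avoidance, had ratios of 1.90 ± 0.58 (SE, adjusted p = 0.0215) and 1.67 ± 0.56 (SE, adjusted p = 0.0302). Ratios of ins-34 were 1.01 and 1.06, called in both genotypes, and the reservation on its overlapping neighbour applies. In wt the ratio of ins-5 was 1.94 ± 0.52 (SE, adjusted p = 0.0106), although its fractions overlapped, and in glh1 ins-36 had a ratio of 1.66 ± 0.39 (SE, adjusted p = 0.00533). With culture as a block the calls were 19 in wt, ins-33 being added, against 24% of all genes. They were 22 in glh1, against 26.4%, where ins-5, ins-8, ins-31 and ins-33 were added (adjusted p = 0.0159, 0.0293, 0.0314 and 0.0470). No call was lost. Of members called in neither genotype with or without this block, ins-10 had ratios of 0.78 and 0.88, ins-20 of 0.92 and 0.57, and ins-2 of 0.40 and 0.45. With upper-quartile scaling ins-10 was called higher in both genotypes. Negative ratios in wt were measured for ins-12, ins-14, ins-15, ins-19, ins-21 and ins-30, of which ins-30 was also negative in glh1, where ins-16 was the other negative one (-0.38).

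**Figure D4:**
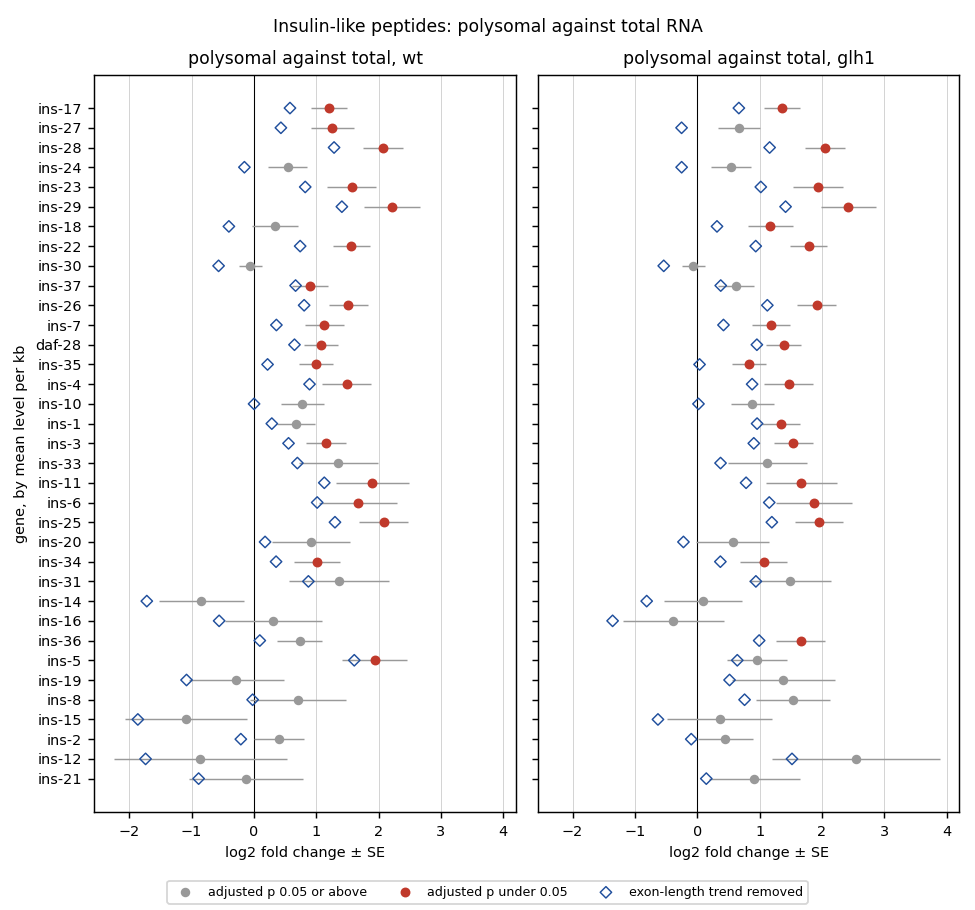
Log2 ratio of polysomal to total RNA, with its standard error, for the 35 members tested in wt (left) and glh1 (right), where red points passed an adjusted p under 0.05 and open diamonds give the ratio after a trend on exon length was removed from each library. Most points lie right of 0 in both genotypes, most diamonds lie left of their points, and ins-30 lies at 0.

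Exon length moved with the ratio. Across 16510 genes with a length, the Spearman correlation of exon length with the log2 ratio was -0.449 in wt and -0.402 in glh1, as a description across genes, which are not independent. Among the 35 members alone it was 0.120 in wt and -0.0824 in glh1. The members had a median exon length of 429 bp against 1297 bp over all genes. When a trend on exon length was removed from each library, 8 members were called higher in wt (ins-5, ins-17, ins-22, ins-23, ins-25, ins-26, ins-28 and ins-29), against 17.2% of all genes, and 2 lower (ins-14 and ins-30), against 16.9%. The median of the members was then 0.36. In glh1, 11 were called higher, against 20.5%, with a median of 0.64. Calls also depended on single libraries: 9 members were called in wt without total RNA library 3, against 11.8% of all genes. Under every alternative that tested them, 7 members kept their call in wt (ins-17, ins-22, ins-23, ins-25, ins-26, ins-28 and ins-29) and 11 in glh1, these 7 with daf-28, ins-1, ins-3 and ins-36. The same share over all genes is not given here, so this stability is not read as particular to the members. Without polysomal glh1 library 3 the median ratio in glh1 was 0.86.

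The fourth comparison asked whether the polysomal to total ratio differed between genotypes. For 0 of 35 members did the interaction pass with edgeR, as for 0% of all genes, and 0 reached an unadjusted p under 0.05, against 2.97% of all genes. Over all 16526 genes edgeR called 0, where 491 had an unadjusted p under 0.05, and DESeq2 called 3, none of them a member. The median difference of the ratios, glh1 minus wt, was 0.12 on the log2 scale over the members and 0.07 over all genes, and it was -0.27 without polysomal glh1 library 3. The median SE of the difference was 0.54 per member. The 3 members called in wt but not in glh1 and the 3 called in glh1 but not in wt are not shown to differ between genotypes. The difference was -0.98 ± 0.70 (SE, adjusted p = 1.00) for ins-5, -0.59 ± 0.47 (SE, adjusted p = 1.00) for ins-27 and -0.28 ± 0.41 (SE, adjusted p = 1.00) for ins-37. It was 0.67 ± 0.43 (SE, adjusted p = 1.00) for ins-1, 0.83 ± 0.51 (SE, adjusted p = 1.00) for ins-18 and 0.93 ± 0.54 (SE, adjusted p = 1.00) for ins-36.

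The wt cultures differed among themselves in several members, and total and polysomal RNA of a culture did so together. The agonist ins-33 measured 0.807, 2.96 and 2.89 CPM in wt and 1.47, 1.74 and 1.58 CPM in glh1 in total RNA and 1.37, 7.46 and 8.27 CPM in wt and 2.28, 2.06 and 6.20 CPM in glh1 in polysomal RNA. In each fraction wt culture 1 was the lowest of the 6 libraries, and wt cultures 2 and 3 were the highest. Low values in wt culture 1 were also seen in ins-11, at 0.269, 0.987 and 0.757 CPM in total and 0.936, 2.97 and 3.59 CPM in polysomal RNA, and in ins-16, at 0.122, 0.681 and 0.466 and 0.0807, 0.558 and 0.957 CPM. Other members went the opposite way. For ins-6, wt culture 1 measured higher than cultures 2 and 3, with 1.13, 0.374 and 0.3495 CPM in total and 4.03, 0.787 and 1.04 CPM in polysomal RNA, and ins-20 measured 0.905, 0.204 and 0.175 and 1.31, 0.355 and 0.744 CPM. Among the 35 members tested, wt culture 1 was the highest wt library for 18 in total RNA and for 19 in polysomal RNA, against 36.6% and 44.3% of all genes. It was the lowest for 10 and 12, against 45.8% and 36.9%.

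The receptor and its pathway were examined beside the ligands. The gene daf-2, which encodes the insulin-type receptor, measured 122, 96.9 and 102 CPM in wt and 76.3, 61.7 and 83.7 CPM in glh1 total RNA. The groups lay apart, and the log2 change of -0.53 ± 0.43 (SE, adjusted p = 0.553) did not pass. In polysomal RNA daf-2 measured 23.9, 13.5 and 16.9 CPM in wt and 32.2, 32.8 and 6.38 CPM in glh1, with overlap. Its polysomal to total ratio was lower than 0 in both genotypes, at -2.56 ± 0.46 (SE, adjusted p = 0.00108) in wt and -1.63 ± 0.44 (SE, adjusted p = 0.0109) in glh1. The transcription factor gene daf-16 did not pass in any of these contrasts, with log2 changes of -0.42 ± 0.28 (SE, adjusted p = 0.467) and 0.14 ± 0.28 (SE, adjusted p = 0.851) between genotypes and ratios of -0.32 ± 0.28 (SE, adjusted p = 0.390) in wt and 0.24 ± 0.28 (SE, adjusted p = 0.509) in glh1. Of 29 genes of the DAF-2 pathway, 26 were tested. Between genotypes 0 of 26 were called in either fraction, with medians of -0.30 in total and -0.05 in polysomal RNA. Between fractions, 4 of 26 were higher and 13 lower in polysomal RNA of wt, where 20.1% of all genes were called higher and 19.8% lower. In glh1, 3 were higher and 13 lower, against 23.6% and 19.1% of all genes. The lower genes included age-1, the catalytic subunit of phosphoinositide 3-kinase (-2.07 in wt and -1.81 in glh1). The higher genes included shc-1, an adaptor of the pathway (0.64 and 1.06), and par-5, a 14-3-3 protein (0.98 and 1.15). Ratios of this list and of the lists below are given without removal of the exon-length trend. Over all genes, exon length correlated with the ratio at -0.449 in wt and -0.402 in glh1, and its part in these lists was not tested.

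Genes for processing, packaging and release of peptides were tested in 24 of 25 cases. Between genotypes 0 of 24 were called, with medians of 0.26 in total and 0.20 in polysomal RNA. In wt, 1 was higher in polysomal RNA, aex-6, a Rab27 GTPase of vesicle release (1.20 ± 0.17 SE, adjusted p = 2.01e-04), and 10 were lower, against 20.1% and 19.8% of all genes. Among the lower were pkc-1, a protein kinase C of dense-core vesicle release (-2.12 ± 0.24 SE, adjusted p = 5.50e-05), and cpd-1, a carboxypeptidase (-1.18 ± 0.26 SE, adjusted p = 0.00404). In glh1, 4 of 24 were higher and 8 lower, against 23.6% and 19.1% of all genes.

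Known targets of DAF-16 were counted as well. Of 27 genes that rise when DAF-16 is active, 25 were tested. Between genotypes 1 of them passed, thn-1, a thaumatin-family gene, which was higher in libraries labelled glh1 in total RNA (2.48 ± 0.32 SE, adjusted p = 0.00302) and in polysomal RNA (2.72 ± 0.32 SE, adjusted p = 0.00155). The medians of the 25 were 0.14 and 0.35. Between fractions 14 of 25 were higher and 1 lower in polysomal RNA of wt, against 20.1% and 19.8% of all genes, and 15 were higher and 0 lower in glh1, against 23.6% and 19.1%. Of 12 genes lowered by active DAF-16, ins-7 among them, 10 were tested and 0 were called between genotypes. Between fractions 3 were higher and 4 lower in polysomal RNA of wt, and 2 higher and 3 lower in glh1, against the same shares of all genes. Of the 6 comparison ligands and dauer genes, 0 were called between genotypes. In polysomal RNA 4 were higher in wt and 3 in glh1, against 20.1% and 23.6% of all genes. They were daf-7, dbl-1 and tig-2, which encode TGF-beta ligands, in both genotypes, and daf-9 in wt only. The ratios of daf-7, dbl-1 and tig-2 in wt were 1.06, 1.21 and 0.79.

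Marker lists of tissues were summed beside the members. The members summed to 109, 114 and 99.9 CPM in wt and 165, 167 and 155 CPM in glh1 total RNA. A list of 19 neuron markers summed to 879, 724 and 716 CPM in wt and 1063, 996 and 1050 CPM in glh1, also without overlap. Of these 19 genes, 17 had a positive log2 fold change, with a median of 0.33, and 0 were called. For 12 genes of sensory neuron cilia the median was 0.51, with 0 called, and their sums in total RNA were 25.4, 19.6 and 22.7 and 27.6, 26.0 and 25.7 CPM. Germline markers summed to 2160, 3370 and 3019 CPM in wt and 1980, 1911 and 2066 CPM in glh1, where the groups lay apart in the opposite direction, and epidermis markers to 1218, 983 and 798 and 566, 607 and 559.8 CPM. Of these genes, 1 of 12 and 2 of 9 had a positive log2 fold change, with medians of -0.50 and -0.18, and 0 were called. Body wall muscle markers summed to 5034, 4001 and 3706 CPM in wt and 3487, 3308 and 3436 CPM in glh1, and embryo markers to 125, 138 and 132 and 103, 88.0 and 113 CPM, so that both lists were lower in glh1 without overlap. Of their tested genes, 1 of 9 and 1 of 6 had a positive log2 fold change, and 0 were called. Intestine markers overlapped, at 3727, 7849 and 5964 and 5181, 5622 and 5264 CPM, and wt culture 1 was the lowest library for them. In polysomal RNA, where glh1 library 3 held 587 CPM of the members, the neuron markers of that library summed to 903 CPM, below libraries 1 and 2 at 1252 and 1174 CPM, and its intestine markers to 13850 CPM, above them at 6210 and 7566 CPM. Its epidermis, body wall muscle and cilia markers, at 1177, 7377 and 21.3 CPM, were also the highest of the group. Its germline and embryo markers, at 1773 and 53.4 CPM, were the lowest. In wt polysomal RNA, intestine markers summed to 4148, 16111 and 17226.5 CPM, where the members summed to 244, 225 and 233 CPM. The part of tissue composition in the differences of the members was not tested. Of the neuron markers, 6 also stand in the list of processing and release genes. The muscle and embryo lists share hlh-1, so they are not separate. The embryo marker skn-1 is also in the DAF-2 pathway list, and the intestine marker mtl-2 among the genes that rise when DAF-16 is active.

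**Figure D5:**
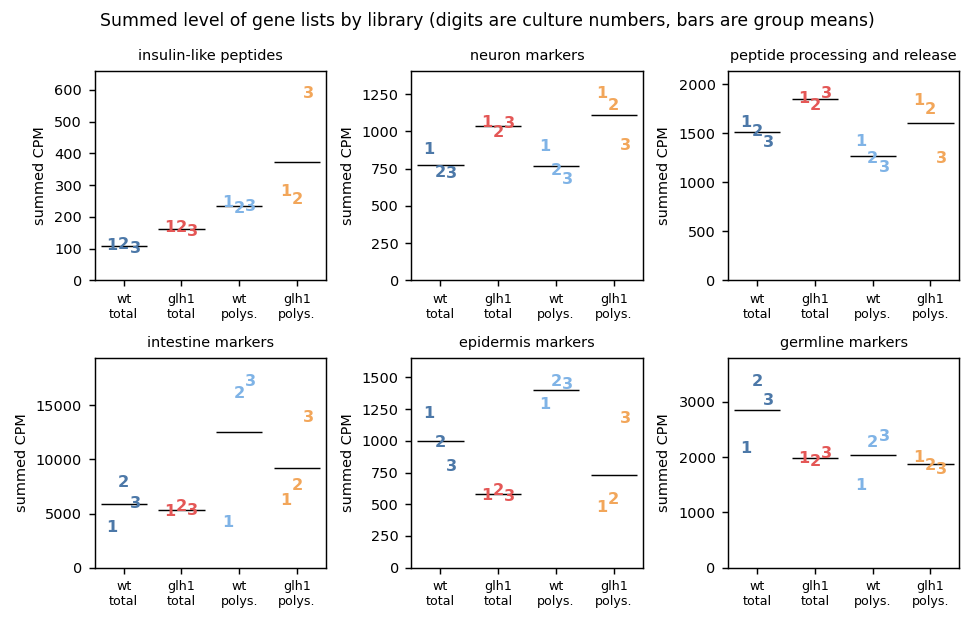
Summed CPM of the 39 insulin-like peptide genes and of 5 lists in each library, with digits for culture numbers and bars for group means. The peptides and the neuron markers are higher in every total RNA library labelled glh1 than in every wt one, and polysomal glh1 library 3 is high for the peptides but lowest of its group for the neuron markers.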

How the data were processed

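The authors deposited estimated counts for 46904 gene IDs, of which 3.79 to 4.80% per library were not whole to within 0.000001, and rlog values on a log2 scale for 12709 genes, 21 of them members. Per the submitters' processing notes, WBcel235 and DESeq2 1.24.0, R 3.6.1, RSEM 1.3.0, STAR 2.6.1b and Trimmomatic 0.36 were used, and per the labels a stranded kit was read for 75 cycles. Which tool gave the deposited counts is unsettled, since the table's title points to kallisto. Symbols, positions and exon lengths were read from Ensembl release 115 (WBcel235), which gave a symbol for 44017 IDs, and promoter or protein sequences were not used here.

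Estimated counts were rounded to whole numbers and fitted with edgeR 4.0.16 in R 4.3.3: filterByExpr (16526 genes left), TMM scaling and 1 robust quasi-likelihood model of 4 group means over 12 libraries. P-values were adjusted by Benjamini-Hochberg within each of 5 contrasts, and genes under 0.05 were called. SEs are the absolute log2 fold change divided by the square root of F. Precision rests on the spread between 3 cultures, which may in part be technical, and for scarce members also on counting. The fit of the total RNA comparison was tested on simulated data. Figures were made in Python 3.11.15 with pandas 2.3.3 and matplotlib 3.10.9.

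Members, gene lists and tests were chosen with earlier results of these data known, so no pattern in them is independent evidence. Genes named are members called in any contrast, published agonists and antagonists, the 5 highest per kb, daf-2, daf-16 and at most 4 called genes per list. Members named outside this rule, such as ins-2, ins-8, ins-16, ins-20, ins-21, ins-24, ins-30 and ins-31, were chosen after their values were seen. Agonist and antagonist roles are from published genetics.

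Each culture's lysate gave both of its libraries, so that polysomal against total RNA is a paired comparison. Deviations from group means correlated at 0.756, 0.440 and 0.303 within wt cultures and 0.0989, -0.163 and -0.206 within glh1 cultures, and the planned main model had no culture term. Alternatives comprised 2 other scalings, 2 filters, only the groups compared, a replicate block, DESeq2 1.42.0, limma 3.58.1 on the rlog values, each library or both libraries of wt culture 1 left out, rRNA genes removed, and a trend on exon length removed (lowess span 0.3).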

Additional observations from a re-analysis of the deposited data

How the results depend on the processing

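Over 23 alternatives and the members called in a contrast, 726 values kept their direction and their call, 109 kept the direction without the call, and none reversed. In total RNA between genotypes, where 0 members were called with a median of 0.58, 9 were called with only the groups compared, 3 by DESeq2 and 7 without both libraries of wt culture 1. Its median was 0.74 with upper-quartile scaling, 0.31 on the rlog values, 0.72 without wt culture 1, 0.66 without rRNA genes and 0.47 with the exon-length trend removed. Leaving out each library in turn gave 0 to 7 calls, the 7 without polysomal glh1 library 3, and medians of 0.53 to 0.65. In polysomal RNA between genotypes, where 1 member was called, the count was 0 with upper-quartile scaling, the strict filter or only the groups compared, 6 by DESeq2, 9 without wt culture 1 and 4 with the exon-length trend removed. Leaving out each library gave 0 to 2 calls and medians of 0.27 to 1.02, the lowest without polysomal glh1 library 3. Between fractions in wt, with 18 calls and a median of 1.01, removing the exon-length trend gave 10 calls, 8 higher and 2 (ins-14 and ins-30) lower, and a median of 0.36. The median was 1.298 with upper-quartile scaling, 0.60 on the rlog values and 1.236 without wt culture 1, and leaving out each library gave 9 to 20 calls, the 9 without wt total RNA library 3. Between fractions in glh1, with 18 calls and a median of 1.34, the exon-length trend left 11 calls and a median of 0.64, the rlog values gave a median of 0.72, and leaving out each library gave 12 to 21 calls and medians of 0.86 to 1.45. The median of the interaction ran from -0.27 to 0.35 over libraries left out. The causes of these shifts were not tested. Upper-quartile scaling moved the median of all genes from -0.07 to 0.08 in total RNA between genotypes, from 0.06 to 0.32 between fractions in wt and from 0.13 to 0.28 in glh1.

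Deviations of same-numbered wt and glh1 libraries correlated at 0.117, 0.104 and 0.0877 in total RNA and 0.201, 0.0518 and 0.306 in polysomal RNA. Here 6 of 6 and 5 of 6 libraries correlated best with their own number. Between total and polysomal RNA this held for 4 of 6 libraries in wt and 1 of 6 in glh1. Whether same-numbered cultures of the genotypes were handled together was not tested. With the number as a replicate block the members' calls stayed at 0 and 1, and the calls over all genes went from 156 to 136 and from 175 to 183. The culture block gave 19 and 22 member calls between fractions and 0 for the interaction, and it changed no call other than those named above. Depth limited ins-9, ins-13, ins-32 and ins-39, which did not pass the filter of the main fit. Of these, ins-9 was tested in 12 alternatives and the others in 1, the fit without a filter. SEs were 0.59 or more for scarce members such as ins-8, ins-21 and ins-31, and the part of depth in them was not tested.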

Other observations

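The genes whose log2 CPM followed called members most closely over the 12 libraries are given as a description, since libraries share cultures, depth and fraction. For ins-28 they were T19C3.5 (Pearson r = 0.996), T23F2.3 (0.995) and ttr-6 (0.995), a transthyretin-related gene. For ins-26 they were mec-12 (0.993), an alpha-tubulin gene of touch neurons, pqn-42 (0.991) and clec-145 (0.991). For ins-22 they were ttr-43 (0.992), spp-15 (0.991), a saposin-like gene, and E04F6.8 (0.991).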
